A study of Mus musculus with 12 samples.

Results

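The genes described here are the Wnt ligands with their Frizzled and LRP receptors, the R-spondins, the secreted Wnt antagonists, the Axin scaffolds, the TCF/LEF factors and the Groucho corepressors. They were chosen by name among the protein-coding genes of the count table, which gave 55 of 54532 genes. Of these, 48 had enough counts to be tested and 7 did not. The families were proposed with results of the same comparison known, so every count, median and p-value given for them is a description and nothing is read from it.

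Total RNA from dorsal root ganglia, the sites of the sensory neuron cell bodies, was sequenced as paired reads in 12 libraries from C57BL/6 mice. All mice, controls included, were given D-Alanine. Controls (6 libraries) carried the genotype CDH5-Cre, in which the promoter of VE-cadherin, a gene of endothelial cells, drives the Cre recombinase. The 6 DAAO libraries carried the genotype DAAO-TGCdh5, in which D-amino acid oxidase, an enzyme that makes hydrogen peroxide from D-alanine, is linked in the label to the same promoter. Cre is named in the titles of the DAAO libraries but not in their genotype label. The labels give no age, dose or duration and do not say that each library came from a separate animal, so a p-value here reflects no more than the spread among these samples, which may be technical. Dorsal root ganglia hold neurons, glia, vessels, fibroblasts and macrophages, and in such tissue fewer cells of a type and less RNA per cell cannot be told apart.

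Wnt proteins are secreted, lipid-modified ligands that bind a Frizzled receptor together with the co-receptor LRP5 or LRP6. In the canonical branch this releases beta-catenin from the destruction complex built on Axin, and beta-catenin then joins TCF/LEF factors at target genes, where Groucho proteins otherwise hold transcription down. R-spondins raise the number of Frizzled receptors at the surface, while SFRP proteins and WIF1 bind the ligands and DKK proteins act on LRP5 and LRP6. In the nervous system the pathway is known for patterning the neural tube, directing neural crest cells toward the sensory lineage, axon guidance and the growth of the vessels of the central nervous system.

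Transcripts of the ligand Wnt10b and of the corepressor Tle3 were higher in the DAAO ganglia at an adjusted p under 0.05, and no member was lower. Of 17002 genes tested, 128 passed this threshold (0.753%), 86 of them higher (0.506%) and 42 lower (0.247%) in DAAO. In 3 members, Wnt10b, Tle3 and the antagonist Wif1, the 6 DAAO libraries did not overlap the 6 control libraries, as did not 246 of all genes tested (1.45%). An unadjusted p under 0.05 was found for 8 members and for 1753 of all genes tested (10.3%). The log2 fold change (DAAO minus control) was positive in 31 and negative in 17 of the 48 tested members, with a median of 0.07, beside 8563 positive, 8439 negative and a median of 0.00 over all genes tested. Wnt10b passed the filter on low counts through the DAAO libraries, since 1 control library and all 6 DAAO libraries were over it. Wif1 was over it in 2 control and 6 DAAO libraries.

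Markers of other cell types differed between the groups as well. In a list of 12 markers of repair and non-myelinating Schwann cells, Btc, Runx2 and Sox2 passed, with log2 fold changes of 4.54, 1.67 and 1.07, and 8 of the 12 were positive. The mean centred log2 CPM of that list lay between -0.61 and -0.15 in controls and between 0.17 and 0.61 in DAAO, while its summed level, led by abundant markers such as Ngfr, overlapped (1062 to 2273 CPM in controls, 1799 to 2134 in DAAO). Of 8 markers of proprioceptors, the sensory neurons of limb position, all were negative and 4 passed (Runx3, Esrrg, Etv1 and Whrn). Their summed level was 613 to 1186 CPM in controls and 422 to 608 in DAAO. No marker of either list was at 0 in a whole group. Of 12 markers of myelinating Schwann cells, 11 were negative, 7 had an unadjusted p under 0.05 and 0 passed, with a median of -0.45. Of 6 markers of satellite glia, 5 were negative, 2 had an unadjusted p under 0.05 and 0 passed, with a median of -0.37. Over all genes tested, 10.3% had an unadjusted p under 0.05. The part of these cells in the values of Wnt10b and Tle3 was not tested.

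The bases that precede the transcription start of these 3 genes are shown because they are the members whose groups did not overlap. They are from RefSeq, GRCm38.p6, 5′ to 3′ on the strand of the gene, and capitals mark the E-box motif CACGTG. The Wnt10b window is chr15:98778151-98778400 on the minus strand, the Tle3 window chr9:61372116-61372365 on the plus strand and the Wif1 window chr10:121033754-121033959 on the plus strand. The last is shorter, with 206 bases, because the start of Wif1 in RefSeq lies 44 bases after its start in the count table.
Wnt10b: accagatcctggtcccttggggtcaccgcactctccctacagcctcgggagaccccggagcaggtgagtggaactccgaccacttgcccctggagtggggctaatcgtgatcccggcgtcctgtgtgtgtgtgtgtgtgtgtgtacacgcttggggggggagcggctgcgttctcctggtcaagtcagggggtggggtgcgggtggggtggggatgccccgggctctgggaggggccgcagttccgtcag
Tle3: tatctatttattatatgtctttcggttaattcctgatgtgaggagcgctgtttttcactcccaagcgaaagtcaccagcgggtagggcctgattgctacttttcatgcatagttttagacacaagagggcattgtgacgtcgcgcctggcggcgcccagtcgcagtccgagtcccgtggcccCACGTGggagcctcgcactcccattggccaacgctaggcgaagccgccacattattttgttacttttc
Wif1: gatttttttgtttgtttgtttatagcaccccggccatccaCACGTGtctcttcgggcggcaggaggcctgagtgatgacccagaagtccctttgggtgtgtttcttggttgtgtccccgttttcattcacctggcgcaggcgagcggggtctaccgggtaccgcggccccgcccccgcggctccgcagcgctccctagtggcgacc
The windows of Wnt10b, Tle3 and Wif1 were 66.8%, 52.4% and 61.7% G and C. Both strands were searched for the TCF/LEF motif written as CTTTGAA or CTTTGAT, the AP-1 motif TGAGTCA, the CRE motif TGACGTCA and, chosen after the sequences were seen, CACGTG. None of the first 3 was in the windows of these genes, and CACGTG was once in that of Tle3 and once in that of Wif1. Among all 32851 windows of 250 bases in RefSeq, 7.48% held the TCF/LEF motif, 4.46% AP-1, 1.55% CRE and 6.02% CACGTG. RefSeq had 47 windows for 38 members, of which 3 held the TCF/LEF motif (Dkk1, Wnt11 and Wnt5b), 1 held AP-1 (Wnt5b), 0 held CRE and 7 held CACGTG (Fzd9, Lef1, Rspo4, Tle3, Tle4, Wif1 and Wnt9a). The median share of G and C was 66.8% in the windows of members and 52.4% in all windows. The motif shares were not matched for it, so they are not like for like.

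Each library held between 13227518 and 23884927 counts. Mitochondrial genes took 4.05 to 7.65% of the counts in controls and 3.32 to 5.13% in DAAO. The summed level of 10 pan-neuronal markers was 9585 to 13524 CPM (read counts rescaled to equal library sizes with TMM factors) in controls and 7015 to 11876 in DAAO, and all 10 were abundant enough to be tested. Their log2 fold changes were negative in 7 and positive in 3. Snap25 alone of them passed, lower in DAAO, at -0.61 ± 0.14 (adjusted p = 0.0498). Control 2 stood apart with a summed level of 2989 CPM for 8 oligodendrocyte and astrocyte markers of the spinal cord. The other controls were at 34.7 to 795 CPM and DAAO at 135 to 944. Controls 4 and 5 stood apart with summed levels of 2591 and 1036 CPM for 8 skeletal muscle markers. The other controls were at 13.7 to 536 CPM and DAAO at 5.34 to 423. Control 2, at 536 CPM, was also above all DAAO libraries. In 5 libraries (DAAO 1, 2 and 6 and controls 1 and 2), Xist and Y-linked transcripts each exceeded 10 CPM. Mouse Dao, which checks no transgene of unstated sequence, ranged from 0 to 5.07 CPM in controls and from 0.0421 to 2.77 in DAAO.

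**Figure D1:**
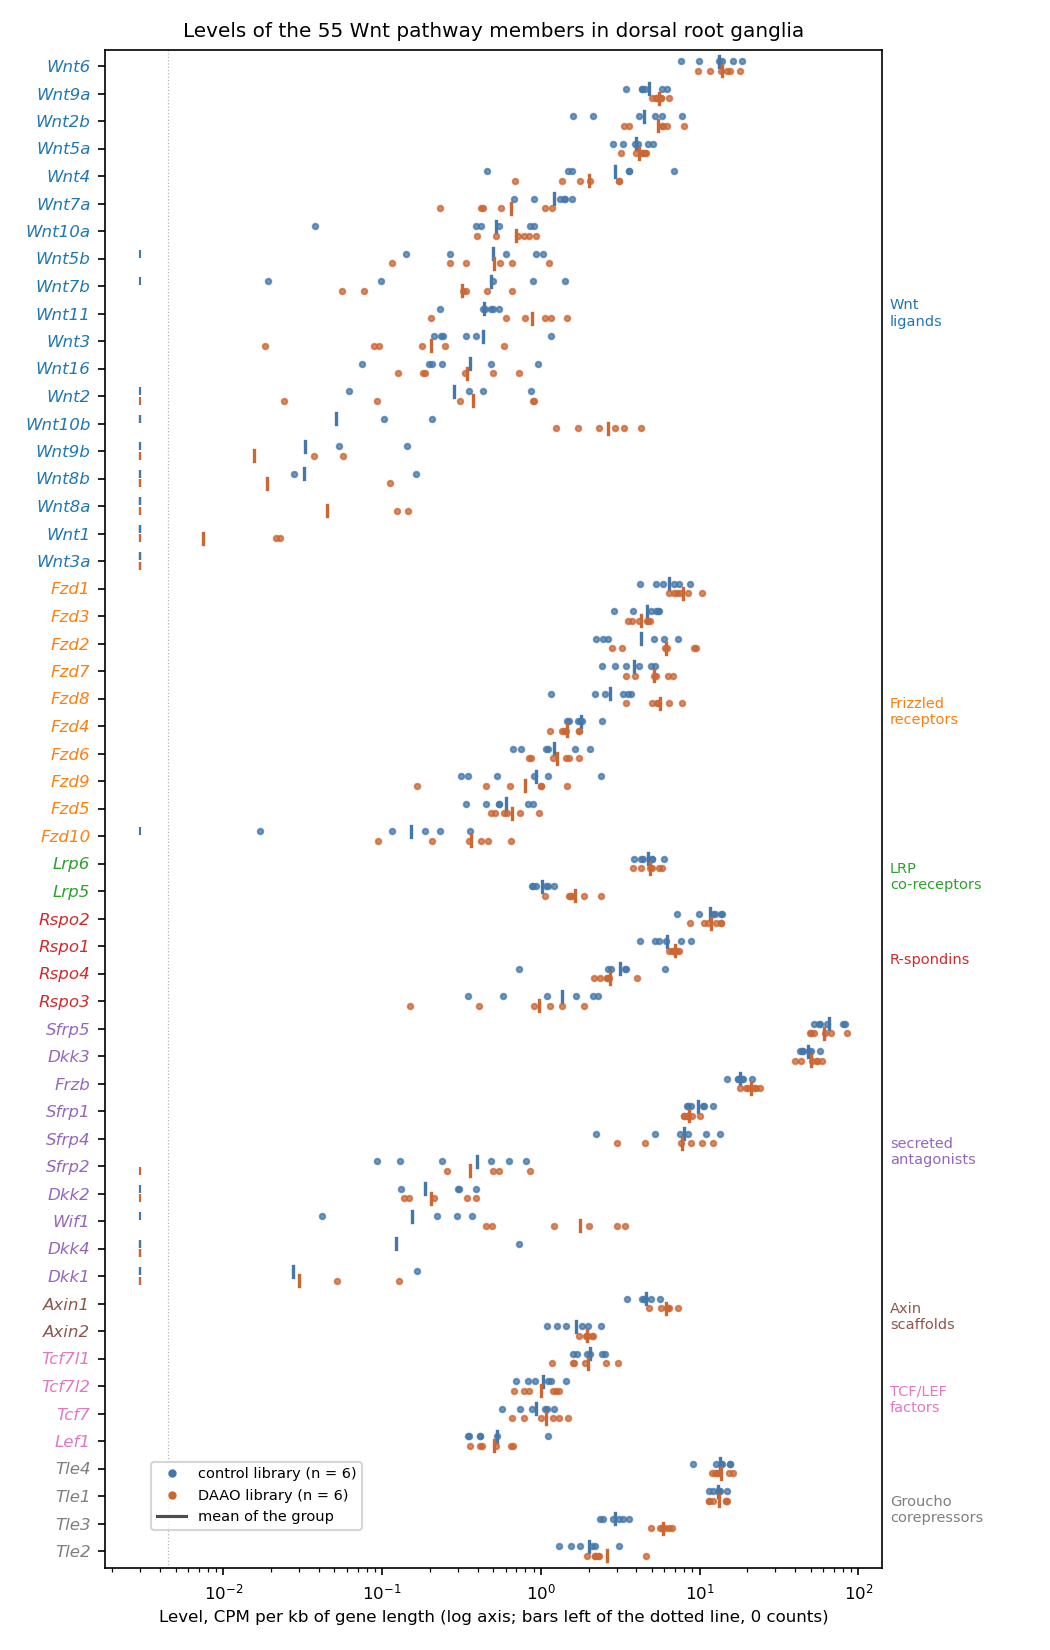
Level of each of the 55 members in each library, in CPM per kilobase of gene length on a log axis, with blue points for the 6 control and orange points for the 6 DAAO libraries, a thick bar for the mean of each group, and thin bars left of the dotted line for libraries with 0 counts. Sfrp5 and Dkk3 are the highest members, and Wnt10b has a mean of 0.0515 CPM per kilobase in controls and 2.63 in DAAO.

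Among the 19 ligand genes, Wnt6 was the most abundant per length in controls, at 13.2 ± 4.02 CPM per kilobase (mean ± SD, n = 6). Wnt6 is a ligand of surface ectoderm and neural crest induction, described mainly in the chick. It was followed in controls by Wnt9a at 4.77, Wnt2b at 4.44, Wnt5a at 3.99 and Wnt4 at 2.92 CPM per kilobase. The 5 ligands together made up most of the ligand transcripts per length, with Wnt6 alone at 38.8% ± 7.23 in controls and 36.5% ± 4.78 in DAAO. The level of Wnt6 was 16.7 (lowest), 29.5 (median) and 40.7 (highest) CPM in controls and 21.4, 31.3 and 39.4 CPM in DAAO, so the groups overlapped throughout. Its log2 fold change was 0.08 ± 0.20 (SE; adjusted p = 0.957).

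Wnt10b (ENSMUSG00000022996; GRCm38 chromosome 15, 98770712 to 98778150, minus strand) encodes a canonical ligand known in mice for holding back fat cell differentiation and favouring bone formation. In controls it had 20 counts in all, 13 in control 2 and 7 in control 3, with 0 in the other 4 libraries. In DAAO it had 967 counts, between 75 in DAAO 3 and 228 in DAAO 1. In CPM, controls were at 0 (lowest), 0 (median) and 0.701 (highest) and DAAO libraries at 4.21, 8.90 and 14.5. Every DAAO library lay above every control, and the lowest DAAO library was 3 and the highest was 1. The mean rose from 0.175 ± 0.293 to 8.95 ± 3.76 CPM, a ratio of 51.1 and a log2 fold change of 5.58 ± 0.81 (adjusted p = 0.00304). The size rests on the few control counts, and without control 2 the log2 fold change was 6.77 (adjusted p = 0.000311).

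Per length, Wnt10b moved from 0.0515 ± 0.0862 to 2.63 ± 1.11 CPM per kilobase, so that its share of all ligand transcripts per length went from 0.127% ± 0.219 to 7.0% ± 2.90. In DAAO its level lay between those of Wnt5a, at 4.17 ± 0.525, and Wnt4, at 2.01 ± 0.961 CPM per kilobase. The ligand gene Wnt1 lies 11706 bases away and had 2 counts over all 12 libraries. Arf3, which encodes a small GTPase of the Golgi and lies 7497 bases away on the same strand, was at 378 ± 41.4 CPM in controls and 374 ± 26.9 in DAAO, with a log2 fold change of -0.01 ± 0.11 (adjusted p = 0.990). The paralogue Wnt10a had a log2 fold change of 0.41 ± 0.57 (adjusted p = 0.895). Without the 5 libraries that held both Xist and Y-linked transcripts, Wnt10b no longer passed, with a log2 fold change of 5.92 (adjusted p = 0.116). That fit kept only controls 3, 4, 5 and 6 and DAAO 3, 4 and 5, so fewer libraries and the kind of library left out cannot be told apart.

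Wnt11 and Wnt7a had the next smallest p-values among the ligands, in opposite directions, and neither passed. Wnt11, a ligand of the non-canonical branch known for cell movements in the frog and fish gastrula, was at 0.960, 1.92 and 2.27 CPM in controls (lowest, median, highest). In DAAO it was at 0.841, 3.86 and 6.03 CPM, with DAAO 3 below all controls and DAAO 1, 2, 4, 5 and 6 above all controls. Its log2 fold change was 0.998 ± 0.42 (adjusted p = 0.413). Wnt7a, which acts in the vessels of the brain and at synapses, was at 2.16, 4.29 and 4.99 CPM in controls and 0.730, 1.57 and 3.70 in DAAO. All 6 DAAO libraries lay below the control median, yet the groups overlapped, and the log2 fold change was -0.91 ± 0.40 (adjusted p = 0.460).

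The other ligands that could be tested were Wnt2, Wnt2b, Wnt3, Wnt4, Wnt5a, Wnt5b, Wnt7b, Wnt9a, Wnt10a and Wnt16, and none passed. The most negative value among all members was that of Wnt3, at -1.08 ± 0.73 (adjusted p = 0.673). Over the 14 ligands tested, 1 was higher, 0 were lower and the median log2 fold change was 0.07. The remaining 5 had too few counts: Wnt1 had 0 in controls and 2 in DAAO, Wnt3a had 0 in both, Wnt8a 0 and 8, Wnt8b 12 and 6, and Wnt9b 15 and 9.

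**Figure D2:**
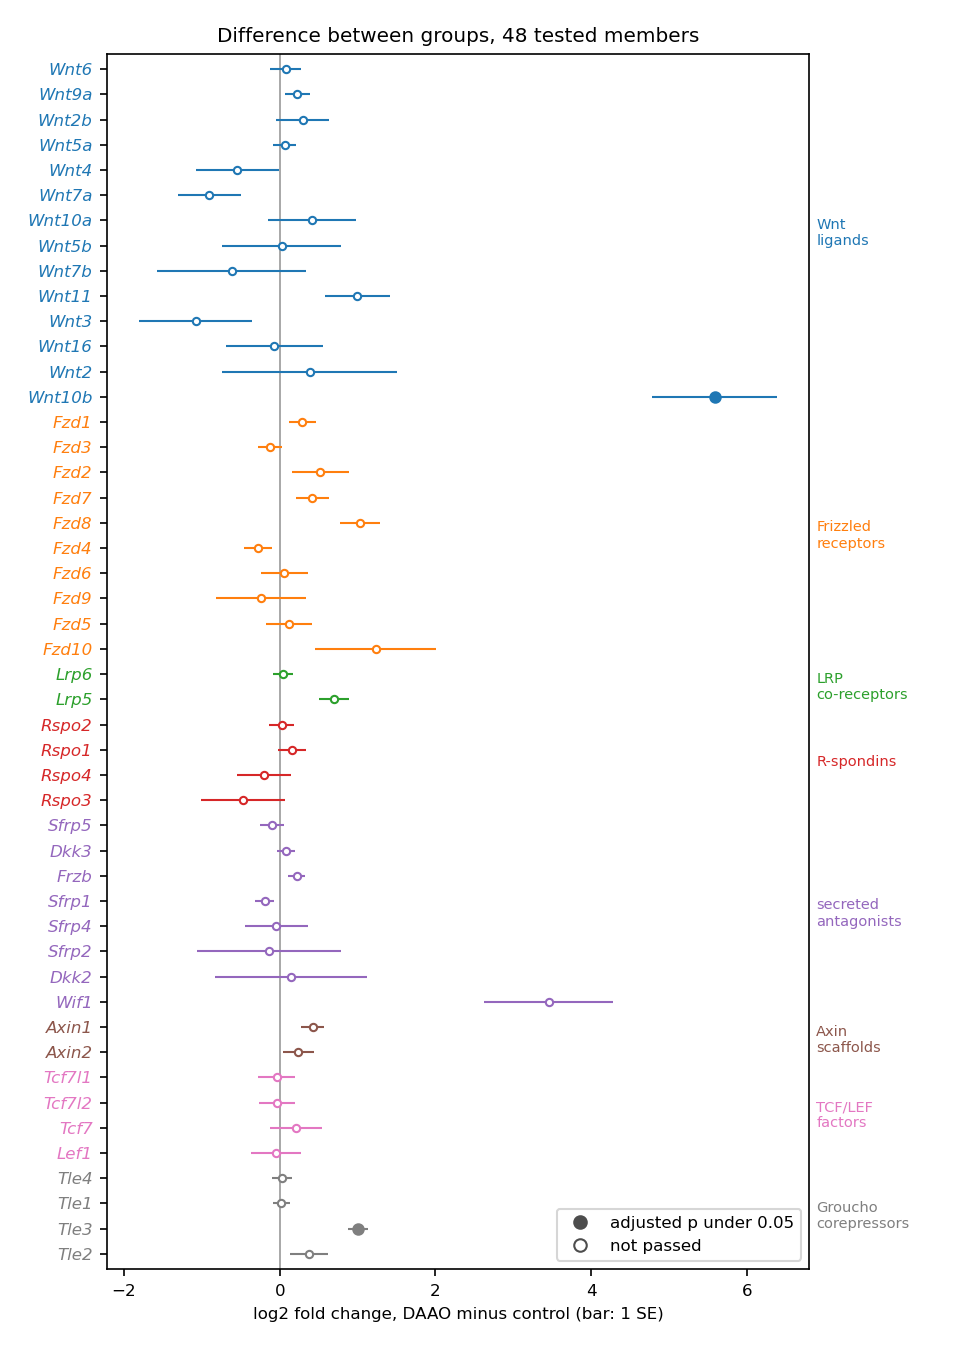
Log2 fold change (DAAO minus control) of the 48 tested members on a linear axis, coloured by family, with bars of 1 SE and filled points for an adjusted p under 0.05. The filled points are Wnt10b at 5.58 and Tle3 at 1.003, and Wif1 at 3.45 is open.

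The Frizzled receptors were all detected, and none of the 10 passed. Fzd1 was the most abundant per length in controls, at 6.40 ± 1.61 CPM per kilobase, followed by Fzd3 at 4.67, Fzd2 at 4.29, Fzd7 at 3.85 and Fzd8 at 2.73. Fzd3, known in mice for guiding axons, had a log2 fold change of -0.12 ± 0.16 (adjusted p = 0.881). Fzd1 was at 17.6, 26.7 and 36.5 CPM in controls and 27.0, 31.0 and 43.6 in DAAO (lowest, median, highest), overlapping, with a log2 fold change of 0.29 ± 0.17 (adjusted p = 0.620).

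Fzd8 (chromosome 18, 9212856 to 9216201, plus strand) had the smallest p of the receptors. It was at 3.89, 9.69 and 12.3 CPM in controls and 11.5, 18.2 and 26.0 in DAAO. The overlap came from DAAO 5, the lowest of its group at 11.5 CPM, which lay below controls 1 and 4. The mean was 9.13 ± 3.21 in controls and 18.7 ± 4.82 in DAAO, with a log2 fold change of 1.03 ± 0.26 (adjusted p = 0.0835). It passed without control 2, at an adjusted p of 0.0454, and with DESeq2, at 0.0132. The other receptors ranged from Fzd4, at -0.28 ± 0.18, to the scarce Fzd10, at 1.23 ± 0.78 (adjusted p = 0.656 and 0.641). The median of the 10 was 0.20.

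Of the LRP co-receptors, Lrp6 was the more abundant, at 4.74 ± 0.738 CPM per kilobase in controls beside 1.02 ± 0.135 for Lrp5. Lrp6 was at 52.6, 64.3 and 81.2 CPM in controls and 51.9, 67.9 and 79.6 in DAAO, with a log2 fold change of 0.04 ± 0.13 (adjusted p = 0.964). Lrp5, known for bone mass and for the vessels of the retina, was at 8.58, 9.79 and 11.8 CPM in controls and 10.3, 15 and 23.2 in DAAO. DAAO 5 alone of its group lay within the control range. The log2 fold change was 0.69 ± 0.19 (adjusted p = 0.129), and with DESeq2 the adjusted p was 0.0459. The share of Lrp5 in the sum of both per length was 17.8% ± 2.45 in controls and 25.0% ± 3.42 in DAAO.

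R-spondins were led by Rspo2, at 11.5 ± 2.53 CPM per kilobase in controls, before Rspo1 at 6.26, Rspo4 at 3.17 and Rspo3 at 1.35. Rspo2 was at 36.9, 62.9 and 70.9 CPM in controls and 44.3, 61.3 and 69.5 in DAAO, with a log2 fold change of 0.03 ± 0.16 (adjusted p = 0.985). None of the 4 passed, and their log2 fold changes ran from -0.48 to 0.15.

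**Figure D3:**
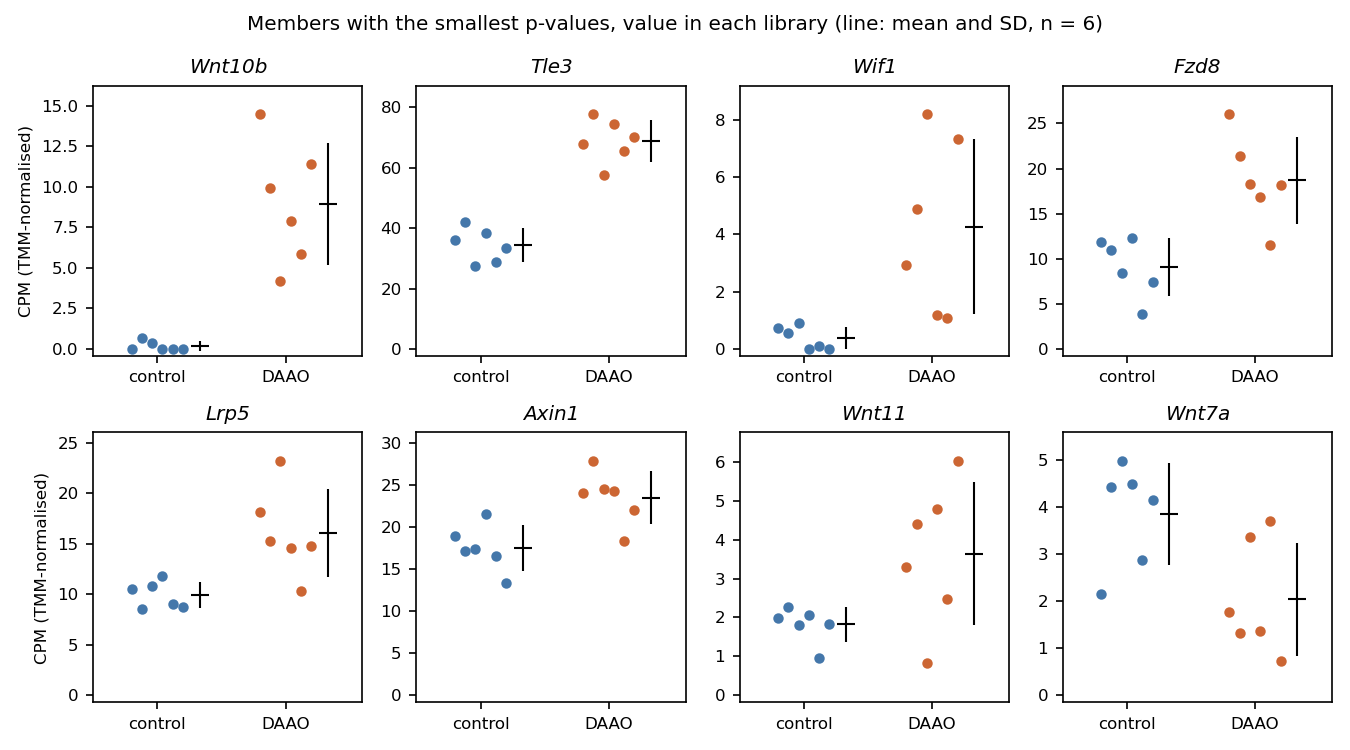
Level in CPM (linear axes, 1 panel a gene) of the 8 members with an unadjusted p under 0.05, with a point for each library in order of replicate number and a cross for the mean and SD of the 6 libraries of a group. The points of the groups are apart in Wnt10b, Tle3 and Wif1 and overlap in Fzd8, Lrp5, Axin1, Wnt11 and Wnt7a.

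The secreted antagonists held the highest levels of all members. Sfrp5, a decoy for Wnt ligands, was at 65.3 ± 12.8 CPM per kilobase in controls, and Dkk3, a member of the Dickkopf family that does not block LRP5 or LRP6 in the way of its relatives, at 47.9 ± 5.35. Frzb followed at 18.1, Sfrp1 at 9.83 and Sfrp4 at 7.97 CPM per kilobase. Sfrp5 was at 100.5, 114.5 and 156 CPM in controls and 94.4, 108 and 160 in DAAO, with a log2 fold change of -0.10 ± 0.16 (adjusted p = 0.905). Dkk3 had a log2 fold change of 0.08 ± 0.12 (adjusted p = 0.905) and Frzb of 0.22 ± 0.11 (adjusted p = 0.524). Dkk1 and Dkk4, both inhibitors of LRP5 and LRP6, had 13 and 12 counts over all 12 libraries and could not be tested.

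Wif1 (ENSMUSG00000020218; GRCm38 chromosome 10, 121033960 to 121100650, plus strand) encodes Wnt inhibitory factor, which binds Wnt ligands outside the cell. It was at 0, 0.320 and 0.899 CPM in controls and 1.09, 3.90 and 8.19 in DAAO (lowest, median, highest), from 43 and 455 counts. The groups did not overlap, but DAAO 4 and 5, at 1.198 and 1.09 CPM, lay close to control 3, at 0.899. The mean was 0.377 ± 0.394 in controls and 4.26 ± 3.04 in DAAO, with a log2 fold change of 3.45 ± 0.83. It did not pass with edgeR (adjusted p = 0.0759) or limma-voom (adjusted p = 0.264), and passed with DESeq2 (adjusted p = 0.000638).

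Among the DAAO libraries, several marker lists were lowest in libraries 4 and 5, as Wif1 was. Between the groups, the repair Schwann cell list above was apart in its mean centred log2 CPM but not in its summed level. The summed level of the proprioceptor markers was apart as well, with the lower values in DAAO. Both lists were chosen with earlier results of these data known. The DAAO libraries in falling order of Wif1 were 3, 6, 2, 1, 4 and 5, at 8.19, 7.30, 4.87, 2.92, 1.198 and 1.09 CPM. The summed level of 10 macrophage markers in the same order was 1809, 1125, 1037, 783, 374 and 462 CPM, and it was 80.2 to 465 CPM in controls. The log2 fold change was positive in 9 of the 10 macrophage markers, Lyz2 passed, and none was at 0 in a whole group. The summed level of 10 fibroblast and nerve sheath markers in that order was 3829, 2771, 3415, 2434, 1739 and 1713 CPM, and it was 760 to 3659 in controls. The spinal cord markers, at 672, 339, 944, 791, 135 and 174 CPM in that order, were likewise lowest in DAAO 4 and 5. The controls followed these marker sums in part. Controls 4 and 6 had 0 CPM of Wif1 and the lowest control sums, at 80.2 and 178 CPM for macrophage and 760 and 1183 for fibroblast markers. Control 3, the highest control in Wif1 at 0.899 CPM, had a macrophage sum of 395 and a fibroblast sum of 2587. Other controls departed from that order. Control 1 had 0.721 CPM of Wif1 at a macrophage sum of 187 and a fibroblast sum of 1418, and control 5 had 0.101 at 329 and 2405. Control 2 had 0.539 CPM of Wif1 at a fibroblast sum of 3659, close to that of DAAO 3. With the macrophage level as a term, an alternative chosen after the data were seen, the log2 fold change of Wif1 was 1.69 (adjusted p = 0.364), and with the fibroblast level as a term 2.65 (adjusted p = 0.119). The same macrophage term left Wnt10b at 5.0 (adjusted p = 0.00641) and Tle3 at 1.06 (adjusted p = 0.00467). The level used for that term ran from -1.86 to 0.49 in controls and from -0.39 to 1.40 in DAAO, so it moved with the group. The part of macrophages or fibroblasts in the values of Wif1, Wnt10b and Tle3 was not tested.

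**Figure D4:**
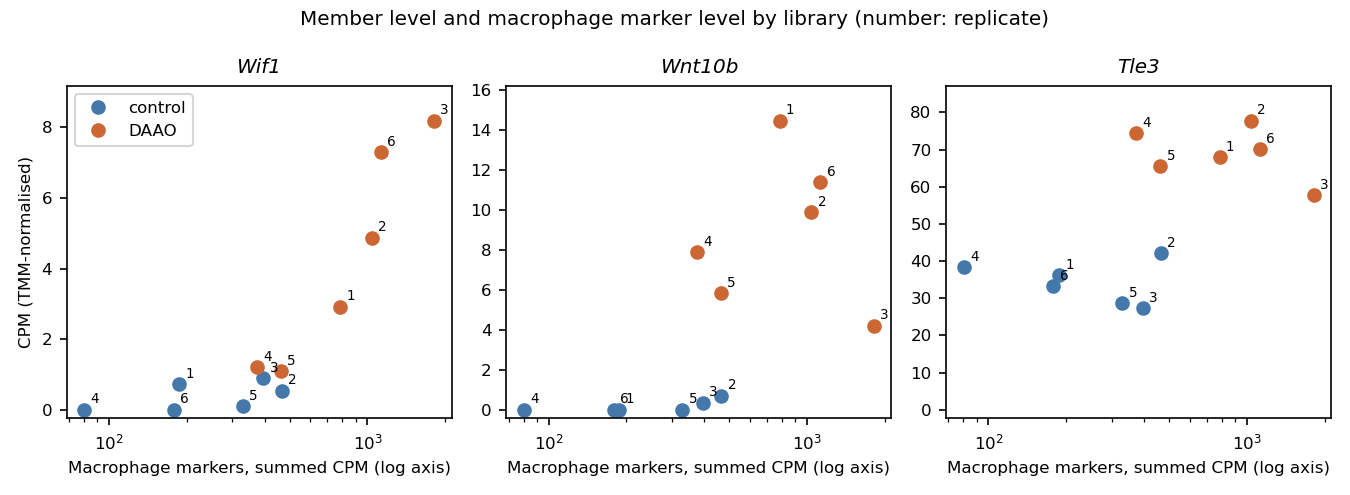
Level of Wif1, Wnt10b and Tle3 in CPM (linear axis) against the summed CPM of 10 macrophage markers (log axis), with 1 point for each library, numbered by replicate. DAAO 3 has the highest marker sum, at 1809 CPM, and is the highest of its group in Wif1 and the lowest in Wnt10b and Tle3.

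The Axin scaffolds, around which the destruction complex of beta-catenin assembles, did not pass. Axin1 was at 13.4, 17.3 and 21.6 CPM in controls and 18.3, 24.1 and 27.9 in DAAO. All 6 DAAO libraries lay above the control median, and the groups overlapped. Its log2 fold change was 0.42 ± 0.15 (adjusted p = 0.273). Axin2, a target of beta-catenin widely used as a readout of its signalling, was at 9.16 ± 2.68 CPM in controls and 10.8 ± 0.779 in DAAO, with a log2 fold change of 0.24 ± 0.20 (adjusted p = 0.772).

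The TCF/LEF factors, which bind DNA and carry beta-catenin or Groucho proteins to target genes, were scarce. Tcf7l1 was the highest, at 2.04 ± 0.383 CPM per kilobase in controls, before Tcf7l2 at 1.03, Tcf7 at 0.927 and Lef1 at 0.526. Tcf7l1 was at 6.26, 7.82 and 9.97 CPM in controls and 4.58, 6.91 and 11.9 in DAAO. Its log2 fold change was -0.04 ± 0.24 (adjusted p = 0.984). The values of the 4 factors ran from -0.05 to 0.21, and none passed.

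Groucho proteins bind no DNA themselves and are brought to it by TCF/LEF and other factors. Tle3 (ENSMUSG00000032280; GRCm38 chromosome 9, 61372366 to 61418497, plus strand) is known in mice as a co-regulator of fat cell genes as well. It was at 27.4, 34.8 and 42.1 CPM in controls and 57.7, 69.0 and 77.8 in DAAO (lowest, median, highest). The highest control, 2, lay below the lowest DAAO library, 3. The mean rose from 34.4 ± 5.67 to 68.9 ± 7.07 CPM, with a log2 fold change of 1.003 ± 0.13 (adjusted p = 0.000844). Without the 5 libraries with both Xist and Y-linked transcripts the log2 fold change was 1.04 and did not pass (adjusted p = 0.112), in a fit of the fewer libraries named for Wnt10b. The predicted gene Gm10655, which lies 172 bases away on the other strand, had 11 counts over all libraries.

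The other Groucho genes did not pass. Tle4 and Tle1 were the most abundant per length in controls, at 13.4 ± 2.38 and 13.03 ± 1.201 CPM per kilobase. Tle4 was at 42.2, 63.7 and 72.2 CPM in controls and 55.2, 60.3 and 75.4 in DAAO, with a log2 fold change of 0.03 ± 0.13 (adjusted p = 0.977). Tle1 was at 113.5 ± 10.5 CPM in controls and 115 ± 14.7 in DAAO (0.02 ± 0.11 on the log2 scale, adjusted p = 0.981). Tle2 was at 12.5 ± 3.97 CPM in controls and 16.1 ± 6.18 in DAAO (0.37 ± 0.24 on the log2 scale, adjusted p = 0.654), with DAAO 1 the highest at 28.6 CPM. Tle3 made up 9.58% ± 2.49 of the Groucho transcripts per length in controls, between 7.42 and 14.2%, and 16.8% ± 1.97 in DAAO, between 14.5 and 20.2%.

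**Figure D5:**
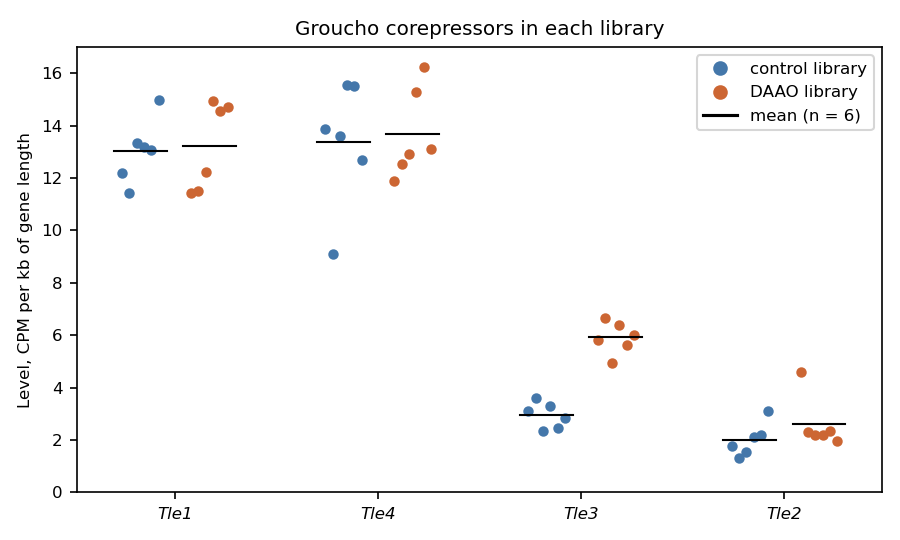
Level of the 4 Groucho genes in each library, in CPM per kilobase of gene length on a linear axis from 0, with lines for the mean of 6 libraries. Tle3 is at 2.95 in controls and 5.91 in DAAO and its groups are apart, while Tle1, Tle4 and Tle2 overlap.

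Several members varied widely among the controls, and the 3 named next were chosen after their values were seen. Sfrp4 ranged from 9.27 CPM in control 4 to 55.99 in control 2, Fzd2 from 8.14 to 26.6 in the same libraries, and Wnt4 from 1.92 in control 4 to 28.8 in control 3. Wnt6 was also lowest in control 4 and highest in control 2. Other members ran the other way: Wnt2b was at 6.74 CPM in control 2, its lowest, and at 32.4 in control 4, its highest. Tle4 likewise was at 42.2 and 72.2 CPM in these libraries. Of the 48 tested members, control 2 was the highest control in 13 and the lowest in 9. Control 3 was the highest in 11, and controls 4 and 6 were each the lowest in 10. Among the controls, control 4 had the lowest and control 2 the highest summed level of several marker lists: 760 and 3659 CPM for fibroblast and nerve sheath, 80.2 and 465 for macrophage, 34.7 and 2989 for spinal cord, and 6834 and 25593 for myelinating Schwann cells. Other lists ran the other way. The repair and non-myelinating Schwann cell sum was highest in control 4, at 2273 CPM, and lowest in control 2, at 1062. Control 4 also had the highest proprioceptor sum, at 1186 CPM, and the highest skeletal muscle sum. Control 2 had the lowest pan-neuronal sum, at 9585 CPM, and the lowest pericyte and smooth muscle sum, at 266. With the fibroblast and the macrophage level as a term, the log2 fold change of Wnt6 was -0.16 and -0.42, and the part of the marker lists in the spread among the controls was not tested.

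Other genes of the pathway were taken from 7 lists of 80 genes, of which 76 could be tested and none passed with edgeR. The 76 include Tcf3 and Tcf4, listed by symbol. These are not TCF/LEF factors and are other genes than the members Tcf7l1 and Tcf7l2. Of these 76, 13 had an unadjusted p under 0.05, beside 1753 of all 17002 genes tested (10.3%). DESeq2 called 1 of them, Ccnd1, beside 362 genes in all, and limma-voom 0, beside 100 in all. The log2 fold changes of the 76 were positive in 49 and negative in 27, with a median of 0.10, beside 0.00 over all genes tested. Ccnd1, the cell cycle gene cyclin D1, had the smallest p among 12 tested genes commonly used as beta-catenin targets. It was at 29.2 ± 9.96 CPM in controls and 63.3 ± 19.8 in DAAO, with a log2 fold change of 1.11 ± 0.25 (adjusted p = 0.0642). In the list of Wnt secretion and ligand modification, 6 of 6 could be tested, and the smallest p was that of Adgra2, a receptor that vessels of the brain need for Wnt7a signalling. Adgra2 was at 18.4 ± 3.21 CPM in controls and 26.7 ± 5.71 in DAAO (0.54 ± 0.16 on the log2 scale, adjusted p = 0.180).

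Among 5 tested extracellular antagonists outside the members, Apcdd1, a membrane inhibitor of Wnt signalling, had the smallest p (log2 fold change 0.58 ± 0.21, adjusted p = 0.328). Ror2, a receptor of Wnt5a, came first among 13 tested other receptors (0.49 ± 0.20, adjusted p = 0.404). Bcl9, which joins beta-catenin to its co-activators, came first among 16 genes listed as nuclear co-factors, Tcf3 and Tcf4 included (0.47 ± 0.17, adjusted p = 0.316). Celsr1, a cadherin of planar cell polarity, came first among 12 genes of that branch (0.57 ± 0.23, adjusted p = 0.394). In the list of Dishevelled, the destruction complex and beta-catenin, 0 of 17 had an unadjusted p under 0.05. The smallest p there was that of the kinase gene Csnk1e (0.21 ± 0.12, adjusted p = 0.613). Ctnnb1, the gene of beta-catenin, was at 369 ± 78.6 CPM in controls and 392 ± 28.7 in DAAO (0.09 ± 0.15 on the log2 scale, adjusted p = 0.910).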

How the data were processed

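The members and the lists of other pathway genes and cell type markers were chosen with earlier results of these data known. The authors deposited whole-number read counts per gene, not normalised, for 12 libraries, with gene positions and the gene length, another deposited value, used for CPM per kilobase. Per the submitters' processing notes, the tools were FastQC, HISAT2 2.0.5 and DESeq2 1.20.0, on GRCm38 (also given as mm10). Not given in the sources used here are the counting program, its strand setting and its annotation release. Reads of genes that overlap on opposite strands may therefore be mixed, and paralogues may share reads. Gene positions were as in GENCODE M21 for 98.33% of 54495 shared genes and 52 of 55 members.

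Genes were kept with filterByExpr (minimum count 10, minimum total 15), scaled with TMM and tested, 6 DAAO against 6 control libraries grouped by their labels, with the robust quasi-likelihood test of edgeR 4.0.16 (R 4.3.3; two-sided; adjusted over 17002 genes by Benjamini-Hochberg) and a threshold of 0.05. This test gave every p-value unless another tool is named. SE is the absolute log2 fold change over the square root of F. The script was tested on simulated data. All 66 pairs of libraries differed beyond sampling noise. Members named with values had an unadjusted p under 0.05, groups that did not overlap, or the highest control level per kilobase of their family; the other pathway lists gave the gene of smallest p each. Values of further genes are given for context and were chosen after they were seen. The alternatives were 24: other scaling and filters, DESeq2 1.42.0, limma-voom (limma 3.58.1), a replicate block, marker levels as terms, and libraries left out, 12 of them 1 at a time. The macrophage term, the fit without controls 2 and 6 and the fit without the libraries with Xist and Y-linked transcripts were chosen after seeing the data. Of 80 other pathway genes, 2 were matched through RefSeq synonyms. Promoter sequences are from RefSeq, GRCm38.p6.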

Additional observations from a re-analysis of the deposited data

Results flagged for a closer look

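Wnt11 in control 5, at 0.960 CPM, lay far from the other controls: the gap to the nearest, at 1.80 CPM, took 0.642 of the group's range, above Dixon's 95% critical value for 6 samples. It was the 1 such value in 30 groups of 6 libraries examined, and chance flags about 1 in 20.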

How the results depend on the processing

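Tle3 and Wnt10b passed in 23 of 24 alternatives, all but the fit without the 5 libraries with Xist and Y-linked transcripts (log2 fold change 1.04, adjusted p = 0.112, and 5.92, adjusted p = 0.116), which called 0 members and 4 genes in all. That fit kept only controls 3, 4, 5 and 6 and DAAO 3, 4 and 5. With libraries left out 1 at a time, Tle3 ran from 0.93 to 1.07 (adjusted p = 0.000306 to 0.00528) and Wnt10b from 5.30 to 6.77 (adjusted p = 0.000311 to 0.0120), members called from 2 to 3, all genes called from 61 without DAAO 6 to 322 without control 2 (80 or fewer also without control 1 or 5 or DAAO 1, 2 or 3), other pathway genes called from 0 to 1, and no member was called lower. DESeq2 called 5 members (Fzd8, Lrp5, Tle3, Wif1 and Wnt10b), 362 genes and 1 other pathway gene (Ccnd1). The replicate block called 4 members (Fzd8, Tle3, Wif1 and Wnt10b), 187 genes and 1 other pathway gene (Ccnd1), but the numbers were not shown to pair the samples: same-numbered libraries correlated between -0.081 and 0.215, and 3 of 6 controls were closest to their own number. The spinal cord term called 235 genes and 1 other pathway gene (Ccnd1), and Wif1 at 3.66 (adjusted p = 0.0124). The fit without controls 2 and 6 called 648 genes and 2 genes of the other pathway lists (Ccnd1 and Tcf3, the latter not a TCF/LEF factor). The fibroblast and the macrophage term each called 1 other pathway gene (Wls). With no filter, Fzd8 passed (adjusted p = 0.0138).

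Signs turned in members near 0, none of which passed: Wnt6 was -0.16 with the fibroblast and -0.42 with the macrophage term, Lrp6 -0.043 with the fibroblast term, -0.044 without controls 2 and 6, -0.12 with the macrophage term and -0.13 without the Xist and Y-linked libraries. Rspo2 was -0.15 without controls 2 and 6 and -0.016 without the Xist and Y-linked libraries, and without controls 2 and 6 Tcf7l1 was 0.0073 and Tle4 -0.10. With libraries left out 1 at a time, Wnt6 ran from -0.042 to 0.20, Lrp6 from -0.013 to 0.11, Rspo2 from -0.074 to 0.0997, Tcf7l1 from -0.22 to 0.076 and Tle4 from -0.056 to 0.079. The causes were not tested. The 7 untested members had too few counts, with none above 0.961 CPM in any library, and whether depth was the limit was not tested.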
